A study of Mus musculus with 15 samples.

Results

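The calpain system was followed through 9 genes in RNA from sorted mouse cardiomyocyte nuclei. They are Capn1, Capn2, Capn3, Capn5, Capn7, Capn10, Capn15, the small subunit gene Capns1 and the inhibitor gene Cast. The 9 genes were taken by symbol from a count table of 55536 genes, and all 9 were among the 17455 genes with enough reads to be tested. Capn3 was chosen by its measured levels in these libraries, which differ with the genotype label in opposite directions in females and males. Its values across the label groups are therefore a description and carry no test. The other 8 genes were added as its family.

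The series asks about sex-specific control of heart maturation by the progesterone receptor, which the gene Pgr encodes. Nuclei that carry Pcm1, a centriolar protein that marks cardiomyocyte nuclei, were sorted from ventricular muscle, and their RNA was sequenced after removal of ribosomal RNA. The 15 libraries are 4 labelled Pgr_KO female, 4 labelled Pgr_KO male, 3 labelled Pgr_WT female and 4 labelled Pgr_WT male. The sources used here do not give the strain, the kind of knockout allele, the age or any pooling of animals. Nor do the labels state that replicates are separate animals, so p-values measure only the spread between these samples, which may be technical.

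Calpains are cysteine proteases of the cytosol that cut their substrates at a limited number of sites when calcium rises. The conventional enzymes, calpain-1 and calpain-2, pair a catalytic subunit (Capn1 or Capn2) with a shared small regulatory subunit (Capns1) and are held in check by calpastatin (Cast). Capn3 encodes a muscle calpain that binds titin and whose loss causes a limb-girdle muscular dystrophy. It is mainly known from skeletal muscle. Calpain activation in heart muscle is known from ischemia and reperfusion.

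In all 15 libraries the reads of Pgr contradicted the genotype given. They stood at 6.10 to 12.5 CPM (counts scaled to a common normalised library size) in the 8 libraries labelled knockout and at 0 to 0.27 CPM in the 7 labelled wild type. Every direction below is therefore given by label alone. Total counts were 24.4 to 139 M per library, and 3 counts in a library equal 0.0219 to 0.117 CPM. The 7 ventricular cardiomyocyte markers, among them Myh6, Ttn and Myl2, all had reads, and their summed level was 43544 to 73826 CPM. The libraries also fell apart by markers of other cells. In 6 of them (replicates 1 and 2 of both groups labelled knockout, replicate 1 of both groups labelled wild type) the 10 endothelial markers summed to between 276 and 498 CPM, and in the remaining 9 to between 21.03 and 70.5 CPM. The 9 fibroblast markers summed to between 400.2 and 1116 CPM in the first set and between 38.1 and 153 CPM in the second. These are called high-marker and low-marker libraries below.

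Capn3 lies on chromosome 2 at 120456019 to 120504913 on the plus strand (GRCm38). Counts were made over whole gene bodies, introns included, and exons make up 10.3% of its 48895 bases. RefSeq on GRCm38.p6 gives 2 start sites inside the counted gene, 7574 and 20890 bases after its first base. GENCODE M21 lists 13 transcripts of Capn3 with 10 distinct starts, so these sites need not be all of its starts. The stretches around the RefSeq sites are shown because Capn3 is the gene whose level followed the labels. Each runs from 250 bases before the start site to 50 after it, on the plus strand, and capitals mark matches to the MEF2 motif (a run of 10 bases) or to CANNTG, the E-box.
Capn3 start site 1, chr2:120463343-120463642: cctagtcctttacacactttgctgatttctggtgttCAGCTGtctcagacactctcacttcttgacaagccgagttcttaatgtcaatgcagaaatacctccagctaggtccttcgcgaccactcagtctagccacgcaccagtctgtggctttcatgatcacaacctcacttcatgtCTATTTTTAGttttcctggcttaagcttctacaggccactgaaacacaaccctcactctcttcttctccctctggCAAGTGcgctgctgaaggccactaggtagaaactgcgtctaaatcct
Capn3 start site 2, chr2:120476659-120476958: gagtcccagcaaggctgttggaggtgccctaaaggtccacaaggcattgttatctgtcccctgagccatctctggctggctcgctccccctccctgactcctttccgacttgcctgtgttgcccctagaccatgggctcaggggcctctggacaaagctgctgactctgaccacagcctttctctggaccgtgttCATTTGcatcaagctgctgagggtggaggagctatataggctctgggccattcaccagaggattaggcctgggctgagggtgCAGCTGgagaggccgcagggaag

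Both strands were searched for 4 motifs, picked after the sequences had been seen. MEF2 factors and the E-box-binding MyoD family are regulators of muscle genes. The MEF2 motif, searched by its degenerate consensus, occurs at 1 place, starting 72 bases before start site 1, and 3.19% of the 32851 RefSeq promoters of the same length hold it. Of 15 promoters listed for 8 of the 9 genes, this is the 1 with that motif. The E-box occurs 2 times in each stretch, and 72.3% of all promoters hold at least 1. AGAACA, the hexamer that progesterone and glucocorticoid receptors bind in pairs, is not in either Capn3 window. It is in 1 promoter of Capn7 and 1 of Capn10, and in 19.0% of all promoters. TATAAA is in 0 of the 15 promoters and in 13.6% of all. A match is a description of letters and not of binding.

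Capn3 was low in females and high in males under the knockout label, and the other way round under the wild-type label. The female libraries labelled knockout held 3.27, 0.95, 1.56 and 1.78 CPM (replicates 1 to 4), and those labelled wild type 3.77, 3.70 and 5.17 CPM. The males labelled knockout held 5.35, 5.63, 4.48 and 6.47 CPM, and those labelled wild type 2.88, 2.11, 3.04 and 1.97 CPM. In each sex the label groups did not overlap, although in females the highest knockout library (replicate 1, 3.27 CPM) lay close to the lowest wild-type library (replicate 2, 3.70 CPM). The sexes did not overlap within either label. Of all tested genes, label groups did not overlap for 1.92% in females and 1.6% in males, and the sexes did not overlap for 3.18% under the knockout and 2.95% under the wild-type label. Nothing is read from these shares, since Capn3 was picked for this pattern. These values rest on 58 to 888 Capn3 reads per library.

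**Figure D1:**
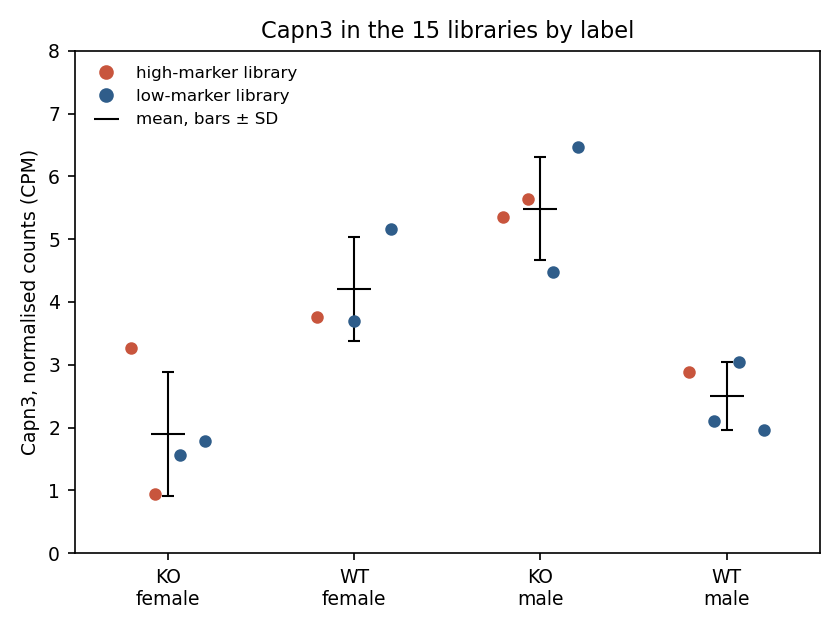
Capn3 level in CPM (vertical axis) for the 4 label groups (horizontal axis). Each point is a library, coloured by its level of endothelial and fibroblast markers, and black marks give the mean ± SD of 3 or 4 libraries. The KO female and WT male libraries lie at or below 3.27 CPM and the WT female and KO male libraries at or above 3.70 CPM.

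The group means of Capn3 were 1.89 ± 0.987 CPM (SD, n = 4) in females labelled knockout, 4.21 ± 0.8292 (n = 3) in females labelled wild type, 5.48 ± 0.820 (n = 4) in males labelled knockout and 2.5 ± 0.541 (n = 4) in males labelled wild type. From low to high, females labelled knockout and males labelled wild type overlapped, as did females labelled wild type and males labelled knockout, while the middle pair of this order did not. The fitted log2 difference, knockout minus wild-type label, was -1.16 ± 0.32 (SE) in females and 1.13 ± 0.30 in males. The label effect in females minus that in males was -2.29 ± 0.44. Beside label differences below, the difference between the sexes means this difference of label effects. Of all tested genes, 6 (0.0344%) had label groups that did not overlap in either sex and differed in opposite directions. The others were Usp42, Ppm1d and 3 predicted genes.

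Capn3 is given here by marker set as a description: since its groups do not overlap, any subset of the libraries keeps the directions for which it was chosen. In the low-marker libraries the 2 females labelled knockout held 1.56 to 1.78 CPM and the 2 labelled wild type 3.70 to 5.17 CPM. There the 2 males labelled knockout held 4.48 to 6.47 CPM and the 3 labelled wild type 1.97 to 3.04 CPM. The fitted difference of the label effect, females minus males, was -2.63 ± 0.41 (SE) in the low-marker libraries. It was -1.78 ± 0.93 in the high-marker libraries, where only 1 library per sex carries the wild-type label. Over the 15 fits without 1 library it lay between -2.70 and -2.07.

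Genes of skeletal muscle, where Capn3 is abundant, were checked beside it. All 10 genes of that list had reads, with a sum between 2.33 and 5.68 CPM in females labelled knockout, 4.67 and 7.68 in males labelled knockout, 3.20 and 8.20 in females labelled wild type, and 4.17 and 6.80 CPM in males labelled wild type. Mybpc2, a myosin-binding protein of fast fibres, supplied a median of 89.1% of that sum. Myod1 and Myf6, which define the skeletal lineage, were at 0 in females labelled knockout, and Myf6 was at 0 in 3 of the 4 groups. Replicate 2 of both wild-type groups stood apart with the fast myosin Myh4 at 0.69 CPM in the female and 0.90 CPM in the male library, against at most 0.051 CPM in the other 13. Capn3 was 3.70 and 2.11 CPM in those 2 libraries, inside or at the edge of the range of their groups. Together with the knockout female replicate 2, these are 3 libraries that also hold sex-linked reads of the opposite sex. Without the 3, the fitted difference of the Capn3 label effect, females minus males, was -2.08 ± 0.42 (SE). The sum of the 4 melanocyte markers also moved with Capn3 between the sexes under the knockout label, through Dct alone. Mlana, Pmel and Tyr overlapped between the sexes there and stood at 0.22 CPM or less. The sum of the 4 was 1.59 to 2.63 CPM in females and 3.36 to 6.94 CPM in males, without overlap. Under the wild-type label it was 1.94 to 3.73 CPM in females and 2.38 to 5.26 CPM in males, which overlap. What part the skeletal and melanocyte genes have in the Capn3 values was not tested. In bulk nuclei, fewer nuclei of a type and less RNA per nucleus cannot be told apart.

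The genes around Capn3 showed no called label difference. Ganc, an alpha-glucosidase gene on the same strand, overlaps the first 5682 bases of Capn3, which is 11.6% of its length. The sources used here do not say how reads in that stretch were assigned. Ganc had 47182 reads over all libraries against 3174 for Capn3, and its log2 label difference was 0.02 ± 0.15 (SE) in females and 0.04 ± 0.14 in males. The difference between these had an edgeR adjusted p = 1.0. Zfp106, the next gene downstream on the opposite strand, differed by -0.08 ± 0.11 and 0.07 ± 0.10. Of the 6 nearest tested genes on both sides and Ganc, 0 of 7 were called in any of the 3 label contrasts. Among all tested genes 0% were called in females, 0.0115% in males and 0% for the difference between the sexes. The long non-coding gene Gm26899, inside the span of Zfp106 on the opposite strand, had the only unadjusted p under 0.05 among these genes in females. Its log2 label difference was -2.34 ± 0.69 (SE, unadjusted p = 0.0043, edgeR adjusted p = 1.0) in females and 0.20 ± 0.55 (adjusted p = 0.999) in males. The difference between the sexes was -2.54 ± 0.88 (unadjusted p = 0.0122, edgeR adjusted p = 1.0), of the same sign as for Capn3. Gm26899 lies near the counting floor, with group means of 0.039 to 0.21 CPM.

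The genes most like Capn3 over the 15 libraries were taken by the Pearson correlation of log2 CPM, predicted genes left out. Naca, a ribosome-associated chaperone subunit with a muscle isoform, came first at r = 0.86. Muc1 (0.85), Vps72 (0.85), Mad2l1bp (0.84), Kcnj14 (0.84) and Frmd5 (0.84) followed. Of these, Muc1 and Kcnj14 were low, with means of 0.279 and 0.620 CPM. Naca stood at 132 CPM in females labelled knockout, 201 in males labelled knockout, 172 in females labelled wild type and 151 CPM in males labelled wild type. This is the same order of groups as Capn3, which its choice by r over these libraries makes likely. Abcd2, a peroxisomal fatty acid transporter, was the most unlike at r = -0.89, with Dynlt1c (-0.85) and Gnai1 (-0.84) next. Over all tested genes the median r was 0.03. The points share their libraries and depth, and the r values are a description.

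None of the 8 family members tracked Capn3 as closely as those genes, which were picked for the highest r. Capn15 had r = 0.50 with it, Capn1 0.37, Capns1 0.35, Capn2 0.19, Capn10 0.18, Cast 0.05, Capn5 0.01 and Capn7 -0.56. Among themselves, Capn2 and Capn5 had r = 0.95 and Capn2 and Capns1 0.87, whereas Cast and Capn1 had -0.81.

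Capn3 and Capn5 were minor members of the family in these nuclei. Per kb of gene body, the mean level over 15 libraries was highest for Capn7 at 2.26 ± 0.318 CPM per kb (SD), then Capn15 at 1.71 ± 0.272 and Cast at 1.67 ± 0.274. Capns1 followed at 1.25 ± 0.319, Capn2 at 0.609 ± 0.172, Capn10 at 0.311 ± 0.0666 and Capn1 at 0.297 ± 0.0682. Capn3 stood at 0.0711 ± 0.0340 and Capn5 at 0.0315 ± 0.0283 CPM per kb. Within libraries, Capn15 was above Cast in 8 of 15, Capn7 above Capn15 in 11 of 15, and Cast above Capns1 and Capn10 above Capn1 in 12 of 15 each, so these neighbours are not separated. Capns1 exceeded Capn2, Capn2 exceeded Capn10 and Capn1 exceeded Capn3 in 15 of 15 libraries. Capn3 was above Capn5 in 12 of 15. The scale depends on gene length: introns make up most of the counted bases, since exons cover between 9.67% (Capn5) and 32.0% (Capn10) of these genes. Capn10 is also overlapped along its whole length by a gene on the opposite strand with 867 reads, against its own 3798.

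**Figure D2:**
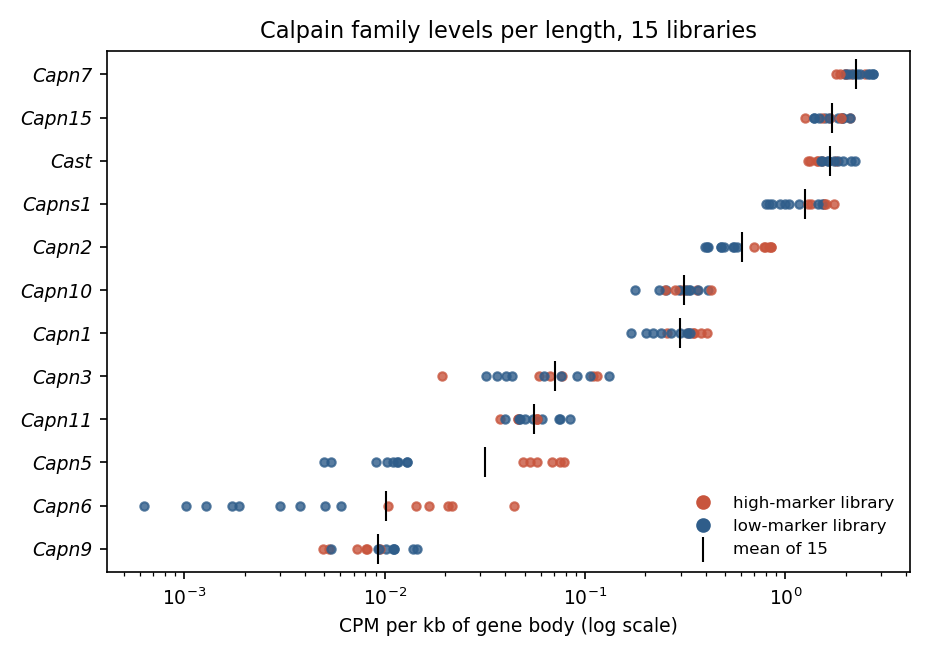
Level of 12 calpain family genes in CPM per kb of gene body (horizontal log axis), each point a library and each black bar the mean of 15. Capn7, Capn15 and Cast lead, Capn3 lies below Capn1 in every library, and the points of Capn5 and Capn6 split by marker level.

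The other family genes in the table were scarce. Capn11 (1.62 ± 0.390 CPM, SD, n = 15) and Capn9 (0.394 ± 0.122) were low, and Capn6 (0.256 ± 0.300) was tested but had as few as 1 read in a library. On the scale per kb, Capn11 had a mean of 0.0557 CPM per kb, between Capn3 (0.0711) and Capn5 (0.0315). Capn8, Capn12 and Capn13 had 13, 43 and 17 reads over all 15 libraries and Capns2 had 0, and these 4 were not tested.

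The conventional calpains and their small subunit showed no called label difference, in a fit that also left Pgr uncalled in females (edgeR adjusted p = 0.315). Capn1, the catalytic subunit of calpain-1, held 11.1, 7.03, 7.35 and 5.98 CPM in females labelled knockout and 9.56, 4.66 and 8.84 CPM in those labelled wild type. Males labelled knockout held 9.46, 8.91, 8.18 and 9.04 CPM and those labelled wild type 10.4, 5.50, 6.56 and 9.14 CPM. The groups overlapped throughout, and the replicate spread of Capn1 was wide in every group but the males labelled knockout. Its log2 label difference was 0.03 (95% interval -0.57 to 0.64) in females and 0.17 (-0.38 to 0.73) in males.

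Capn2, the catalytic subunit of calpain-2, was the more abundant of the pair. Its level was 30.4 ± 9.73 CPM (SD, n = 4) in females of the knockout label and 29.2 ± 11.9 (n = 3) in females of the wild-type label. Males stood at 33.8 ± 6.95 and 28.9 ± 9.67 CPM (n = 4 each). The label difference was 0.05 (95% interval -0.64 to 0.75) in females and 0.22 (-0.42 to 0.86) in males. The high-marker libraries held 35.2 to 42.7 CPM and the low-marker libraries 20.1 to 28.9 CPM, without overlap.

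Capns1 stood at 13.5 ± 4.39 (n = 4) and 12.5 ± 2.73 CPM (n = 3) in females labelled knockout and wild type, and at 17.8 ± 2.89 and 14.8 ± 3.85 CPM (SD, n = 4 each) in males. Its label difference was 0.11 (95% interval -0.47 to 0.69) in females and 0.27 (-0.26 to 0.80) in males. A gene on the opposite strand overlaps 40.9% of Capns1, with 431 reads against 13336.

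Cast, whose product binds and blocks the conventional calpains, had the most reads of the 9 genes. Females labelled knockout held 168, 169, 190 and 226 CPM and those labelled wild type 155, 258 and 175 CPM. Males labelled knockout held 178, 208, 205 and 189 CPM and those labelled wild type 151, 214, 247 and 177 CPM. The groups overlapped, and the largest values came from low-marker libraries of the wild-type label. The label difference was -0.06 (95% interval -0.48 to 0.36) in females and -0.01 (-0.40 to 0.38) in males.

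**Figure D3:**
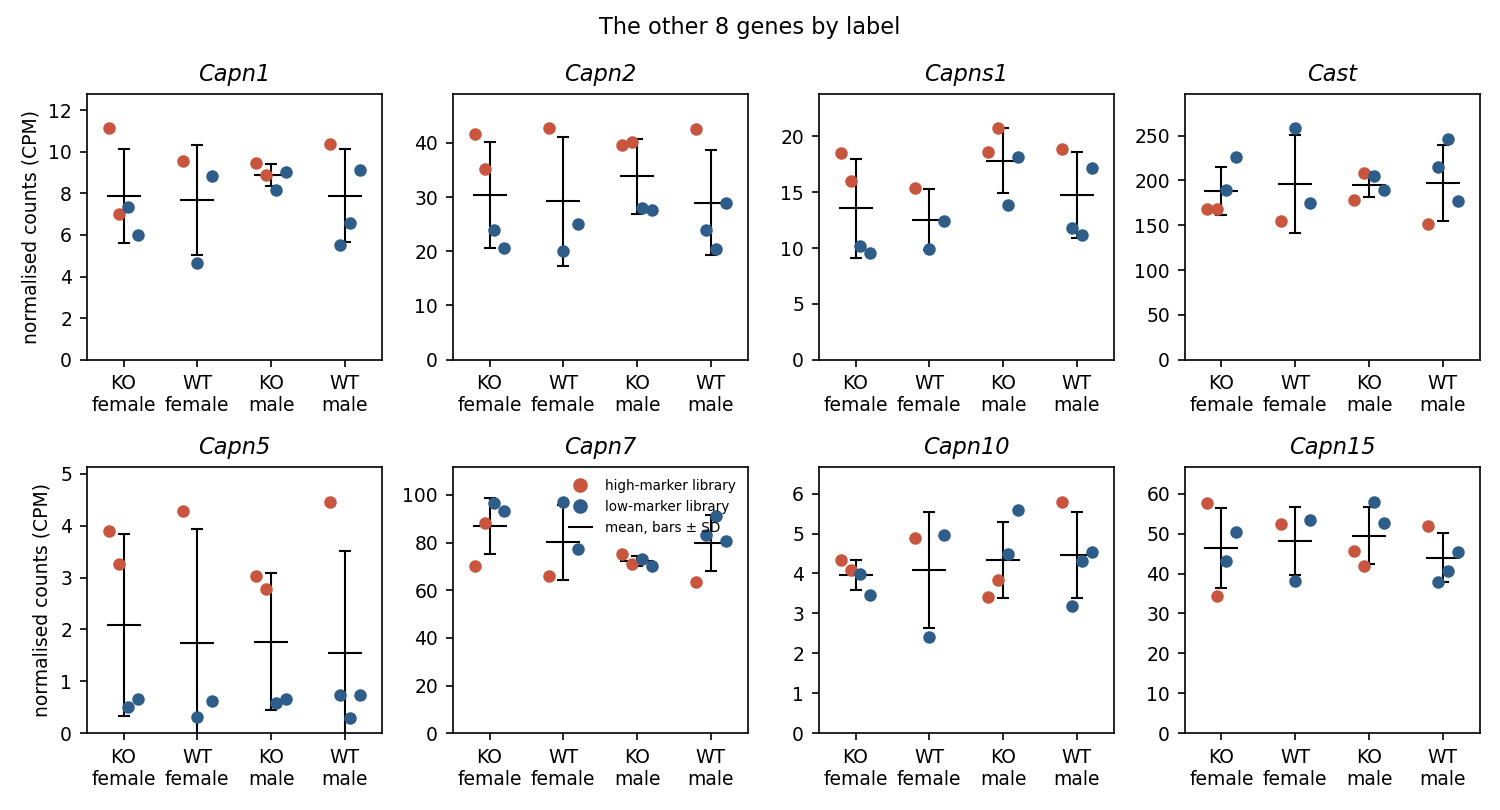
Levels in CPM (vertical axes, each from 0) of the 8 genes other than Capn3 in the 4 label groups. Points are libraries coloured by marker level and black marks give mean ± SD. The groups of all 8 genes overlap, while Capn2 and Capn5 separate the high-marker from the low-marker libraries.

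The ratio of inhibitor to protease reads was taken within each library as Cast over the sum of Capn1 and Capn2, each per kb, which needs no library scaling. These are nuclear reads over whole gene bodies, introns included. The balance of the proteins was not measured. On the log2 scale it was 0.89 ± 0.612 (SD, n = 4) in females labelled knockout, 0.997 ± 0.909 (n = 3) in females labelled wild type, 0.76 ± 0.264 (n = 4) in males labelled knockout and 0.995 ± 0.733 (n = 4) in males labelled wild type. The label difference was -0.10 in females (two-sided exact permutation p = 0.8286) and -0.24 in males (exact permutation p = 0.571), with adjusted p = 1.0 over the 4 pairs of groups. The smallest p these designs can give is 0.0286, and a lone p of that size among the 4 pairs would not pass after adjustment. The ratio of Capn2 to Capn1 was 2.03 at the median of the 15 libraries, with log2 label differences of 0.01 and 0.04 in females and males (exact permutation p = 1.0 and 0.686, adjusted p = 1.0). Both ratios moved with the marker split. Cast reads per kb exceeded those of Capn1 plus Capn2 1.06 to 1.59 times in the 6 high-marker libraries. In the 9 low-marker libraries they did so 1.67 to 3.89 times, without overlap. Capn2 over Capn1 was 2.03 to 2.73 and 1.53 to 2.36. What part other cells have in these ratios was not tested.

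**Figure D4:**
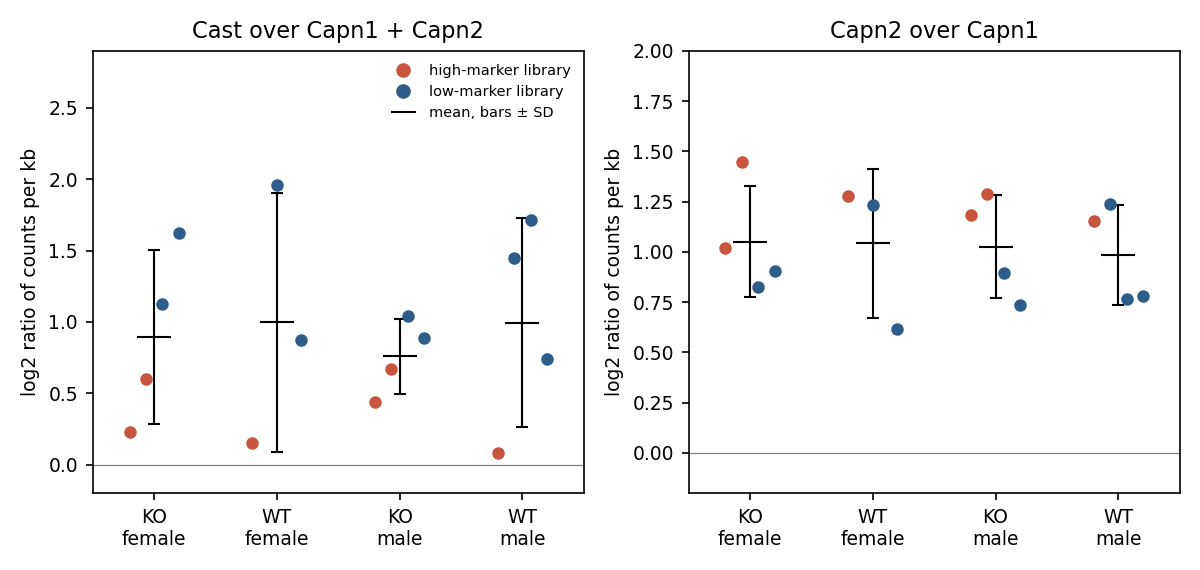
Log2 ratio of counts per kb (vertical axes) of Cast over Capn1 plus Capn2 on the left and of Capn2 over Capn1 on the right, by label group. Points are libraries coloured by marker level, black marks are mean ± SD. In the left panel the high-marker libraries lie at or below 0.67 and the low-marker libraries at or above 0.74.

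Capn5, a calpain without the calcium-binding domain of the conventional enzymes, varied most of the 9 genes and followed the markers of other cells. It stood at 3.90, 3.27, 0.51 and 0.66 CPM in females labelled knockout and at 4.27, 0.31 and 0.62 CPM in those labelled wild type. In males it stood at 3.03, 2.78, 0.58 and 0.66 CPM under the knockout label and 4.46, 0.74, 0.28 and 0.73 CPM under the wild-type label. The 6 high-marker libraries (median 3.58 CPM) all lay above the 9 low-marker libraries (median 0.62 CPM), a ratio of medians of 5.78. Capn6, a calpain without protease activity, split the same way, at 0.26 to 1.11 against 0.016 to 0.15 CPM. Of all tested genes, 13.6% were higher without overlap in the high-marker libraries and 1.08% lower. The label difference of Capn5 was 0.28 (95% interval -2.19 to 2.75) in females and 0.16 (-2.10 to 2.42) in males. Both intervals are wide.

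Of the 3 other calpains, Capn7 and Capn15 were abundant and steady and Capn10 was low. Capn7, which has domains that bind the membrane-sorting ESCRT machinery, was at 87.0 ± 11.8 (SD, n = 4) and 80.1 ± 15.8 CPM (n = 3) in females labelled knockout and wild type, and at 72.4 ± 2.10 and 79.7 ± 11.6 CPM (n = 4 each) in males. Its highest library was 1.53 times its lowest, the smallest range of the 9. The label difference was 0.12 (95% interval -0.21 to 0.45) in females and -0.14 (-0.45 to 0.17) in males. The gene Sh3bp5 overlaps 34.3% of Capn7 on the opposite strand, with 36574 reads against 66246. Capn15, a zinc-finger calpain, was at 46.4 ± 9.97 and 48.1 ± 8.52 CPM in females (n = 4 and 3) and 49.5 ± 7.17 and 43.9 ± 6.10 CPM in males (n = 4 each), with differences of -0.05 (-0.46 to 0.35) and 0.17 (-0.20 to 0.55). Capn10, a gene studied for its link to type 2 diabetes, stood at 3.97 ± 0.375 (n = 4) and 4.09 ± 1.46 (n = 3) CPM in female libraries labelled knockout and wild type. Male libraries stood at 4.33 ± 0.955 and 4.46 ± 1.07 CPM (n = 4 each). Its differences were -0.04 (-0.62 to 0.53) and -0.04 (-0.57 to 0.49).

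**Figure D5:**
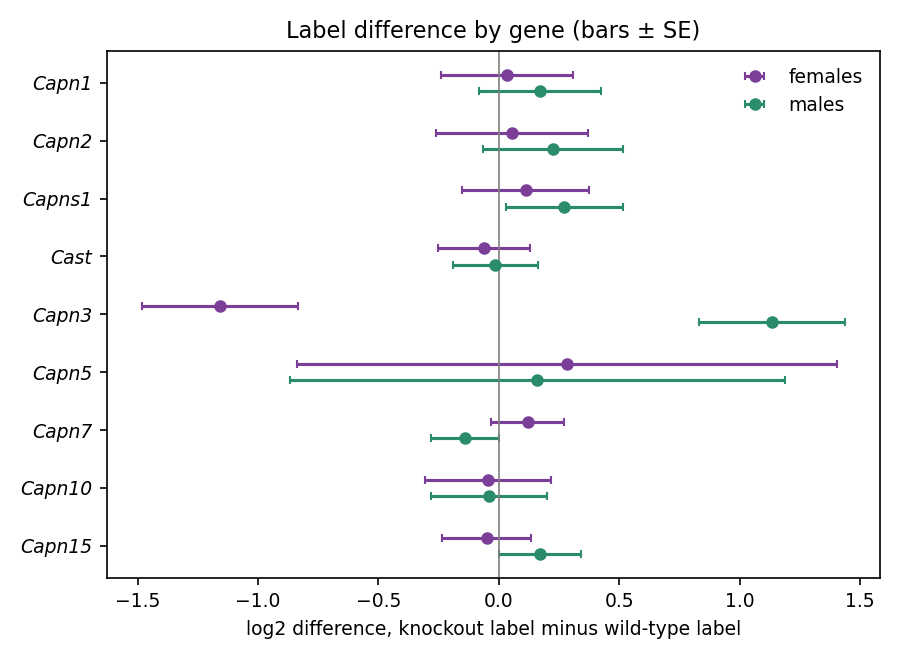
Log2 difference, knockout minus wild-type label (horizontal axis), of the 9 genes in females and males from the edgeR fit, with bars of ± SE. Capn3 lies at -1.16 in females and 1.13 in males, and the points of the other 8 genes lie between -0.14 and 0.28.

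Across the 8 genes, edgeR's quasi-likelihood test called 0 in females, 0 in males and 0 for the difference between the sexes, and 0 of the 8 had an unadjusted p under 0.05 in any of them. Of all tested genes, 1.74%, 1.42% and 2.49% had such an unadjusted p. The adjusted p of each of the 8 was 1.0 in females and for the difference and 0.999 in males. DESeq2 and limma-voom also called 0 of the 8. The differences of the 8 genes did not hold a fixed sign: over 552 values under other settings, 70 had the opposite sign. Capn15 had an unadjusted p of 0.0349 in males in the low-marker libraries alone (edgeR adjusted p = 0.690). The median log2 difference of the 8 was 0.04 in females, 0.17 in males and -0.09 for the difference, against 0.03, 0.02 and 0.02 over all tested genes. For the difference between the sexes the estimates ran from -0.22 ± 0.25 (SE) for Capn15 to 0.26 ± 0.21 for Capn7. The 95% interval was -0.62 to 0.53 for Cast, -0.19 to 0.71 for Capn7, -0.78 to 0.33 for Capn15 and -3.22 to 3.46 for Capn5.

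Females and males were also compared within each label. Of the 8 genes, 0 were called under the knockout label (0.0229% of all tested genes were, 4 genes, or 13 with the replicate number as a block) and 0 under the wild-type label (0% of all). An unadjusted p under 0.05 was found for 0 of the 8 in both, against 6.37% and 2.09% of all tested genes. The lowest unadjusted p was that of Capn7 under the knockout label, 0.0779 (adjusted p = 0.757), with 87.0 CPM in females and 72.4 CPM in males. With the replicate number as a block, 1 of the 8 genes, Capn7, passed an unadjusted threshold of 0.05 there (edgeR adjusted p = 0.376). With a term for marker levels, and in the low-marker libraries alone, 2 did: Capns1 (adjusted p = 0.371 and 0.440) and Capn7 (adjusted p = 0.439 and 0.472). Capns1 in replicates 1 to 4 of the females labelled knockout was at 18.5, 15.98, 10.2 and 9.52 CPM. The males of that label were at 18.6, 20.7, 13.8 and 18.2 CPM. The female library was the lower one at each replicate number, by little at replicate 1. For Capn3, the fitted female minus male difference was -1.54 ± 0.31 (SE) under the knockout label and 0.76 ± 0.32 under the wild-type label.

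Genes that calpains bind or cut were read from a list of 22 that included titin (Ttn), dysferlin (Dysf), the junction protein Jph2 and aldolase A (Aldoa). All 22 were tested and 0 were called in females, males or the difference between the sexes, where 0%, 0.0115% and 0% of all tested genes were called. For that difference 13 of 22 had lower values (median -0.16), against 8337 of 17455 tested genes (median 0.02). Aldoa, a glycolytic enzyme that Capn3 binds, had the lowest p of the list at -0.62 ± 0.28 (SE, unadjusted p = 0.0471, adjusted p = 1.0). It stood at 77.5 ± 16.01 and 93.1 ± 1.28 CPM (SD, n = 4 and 3) in females labelled knockout and wild type and at 108 ± 18.9 and 84.6 ± 22.1 CPM (n = 4 each) in males. Flnc, an actin crosslinker that Capn3 cuts, had -0.76 ± 0.45 (adjusted p = 1.0). Ttn stood at 34409 ± 8484, 36149 ± 3302, 37351 ± 3695 and 36466 ± 2429 CPM in females labelled knockout and wild type and males labelled knockout and wild type. Ryr1, the skeletal calcium release channel, was at 1.91 and 3.23 CPM in the wild-type female and male replicate 2 and at most 0.336 CPM elsewhere.

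The membrane repair list holds 14 genes, among them Dysf, Trim72, Cav3 and the annexins, which seal tears of the muscle membrane. All 14 were tested and 0 were called in the 3 label contrasts, against the same 0%, 0.0115% and 0% of all tested genes. The median was 0.07 in females, 0.27 in males and -0.18 for the difference, where 13 of 14 had lower values. Over all tested genes the medians were 0.03, 0.02 and 0.02, and 8337 of 17455 had lower values for the difference. Cav3, caveolin of muscle, was at 36.5 ± 8.84 and 37.2 ± 4.68 CPM (SD, n = 4 and 3) in females and 46.8 ± 2.69 and 40.5 ± 4.12 CPM (n = 4 each) in males labelled knockout and wild type. Its difference of the label effect, females minus males, was -0.23 ± 0.23 (SE, adjusted p = 1.0).

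Other cysteine proteases gave a comparison outside the family. Of 15 caspases and cathepsins tested, 0 were called in the 3 label contrasts (0%, 0.0115% and 0% of all tested genes were). The median was 0.22 in females, 0.0034 in males and 0.07 for the difference, against 0.03, 0.02 and 0.02 over all tested genes. Some of the 15 varied widely within groups, such as Casp8 at 4.02 ± 3.49 CPM (SD, n = 4) in females labelled knockout. What part the marker split has in these medians was not tested. Casp9, the initiator caspase of the mitochondrial death pathway, had the lowest p of the list for the difference at 0.36 ± 0.14 (SE, unadjusted p = 0.0248, adjusted p = 1.0), opposite in sign to Capn3. It stood at 10.6 ± 0.49 and 9.12 ± 0.50 CPM (SD, n = 4 and 3) in females and 9.95 ± 0.70 and 10.985 ± 1.07 CPM (n = 4 each) in males labelled knockout and wild type.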

How the data were processed

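RNA of sorted Pcm1-positive ventricular nuclei was sequenced in 15 libraries. Per the submitters' processing notes, the authors used STAR 2.5.3a, featureCounts 1.5.0 and the mouse build GRCm38 (mm10). The deposited values are raw counts per gene, and the length column equals the gene span in 100% of genes. A smaller deposited table of 16610 genes holds identical counts. The coordinates of all 9 genes match GENCODE M21. Where a symbol had several gene IDs, the ID with most reads was used.

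Genes were kept by filterByExpr (17455 genes), scaled by TMM and fitted in edgeR 4.0.16 (R 4.3.3) with 1 mean per group over all 15 libraries (11 residual degrees of freedom). Genes were called at an adjusted p (Benjamini-Hochberg over all tested genes) below 0.05 in 5 comparisons. SEs come from the estimate and its F statistic. Intervals use 11 degrees of freedom. The fit was tested on simulated data. The MEF2 motif was searched by its consensus with degenerate letters. Ratios were compared by exact permutation. DESeq2 1.42.0 and limma 3.58.1 (voom) were alternatives. The correlation of log2 CPM used a prior count of 2.

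The members, lists and alternatives were chosen with earlier results of these data known. Besides the 9 genes and their family, named genes are Pgr, up to 3 members of a list with the smallest p, the overlapping gene and the 3 nearest tested genes on each side of Capn3, and the 6 most and 3 least correlated genes. Others (Ttn, Ryr1) were named after their values were seen. Marker lists of mural cells (sum 487 to 631 CPM, mostly Abcc9, which cardiomyocytes also express), leukocytes (6.84 to 87.9), melanocytes (1.59 to 6.94) and atrial cardiomyocytes (43.9 to 169.6) were summed too.

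Libraries with the same number were correlated in their deviations from the group means. The r ranged from 0.162 to 0.716 over the pairs in males and from -0.411 to 0.725 over those in females. Across the sexes it ranged from 0.512 to 0.841 for the knockout and from 0.232 to 0.860 for the wild-type label. All r were positive in each pair of groups except the females, where replicate 2 was at -0.411 and replicates 1 and 3 at 0.725 and 0.563. The replicate number is also tied to the split into high-marker and low-marker libraries. These r values therefore cannot tell a pairing of samples from that split.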

Additional observations from a re-analysis of the deposited data

Results flagged for a closer look

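Capn3 differed with the genotype label in opposite directions in the sexes, with every female library labelled knockout below every one labelled wild type and every male library the other way. Its label effect in females minus that in males was -2.29 on the log2 scale. The difference was not tested, because Capn3 was chosen for it.

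Capn5 in the wild-type male replicate 1 stood far from the other 3 libraries of its group, at 4.46 CPM. That library is the 1 high-marker library of the group, and the part of its other cells in the value was not tested. Of 33 sets of libraries checked this way, chance flags about 1 in 20.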

How the results depend on the processing

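The direction of Capn3 is fixed by its choice, because its groups do not overlap, so its values under the alternatives describe size alone. Over the fits without 1 library its label difference was -1.56 to -0.93 in females and 1.03 to 1.23 in males. The difference of the label effect, females minus males, was -2.70 to -2.07. Female minus male, Capn3 differed by -1.94 to -1.31 (knockout label) and 0.58 to 0.87 (wild-type label). In the high-marker libraries alone, an alternative chosen after seeing the data, the difference of the label effect was -1.78. With the replicate block it was -2.40. The block changed no call of the 8 other genes, of which 0 were called in any of the 5 comparisons under any alternative or in any fit without 1 library (lowest adjusted p = 0.288).

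Some differences of the 8 genes changed sign. In the low-marker libraries alone the female label difference was -0.036 for Capn1, -0.021 for Capn2, -0.19 for Capns1 and 0.023 for Capn15, the male one 0.32 for Capn10, and the difference between the sexes 0.0498 for Cast. Without the 3 libraries that hold sex-linked reads of the opposite sex, the female difference was -0.17 for Capn1, -0.23 for Capn2, -0.12 for Capns1, 0.24 for Cast and -0.51 for Capn5, the male one 0.028 for Cast and -0.069 for Capn5, and the difference between the sexes 0.21 for Cast and -0.44 for Capn5. In males Cast was at 0.0042 with limma-voom and 0.051 with a term for marker levels, which put Capn5 at -0.088.

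Leaving out 1 library at a time also turned signs. In females the range was -0.24 to 0.22 for Capn1, -0.17 to 0.43 for Capn2, -0.076 to 0.28 for Capns1, -0.20 to 0.18 for Cast, -0.23 to 2.14 for Capn5, -0.0023 to 0.27 for Capn7, -0.32 to 0.12 for Capn10 and -0.20 to 0.069 for Capn15. In males the range was -0.12 to 0.10 for Cast, -0.22 to 1.56 for Capn5 and -0.19 to 0.11 for Capn10. For the difference between the sexes the range was -0.40 to 0.048 for Capn1, -0.41 to 0.21 for Capn2, -0.35 to 0.0080 for Capns1, -0.19 to 0.20 for Cast, -1.28 to 1.98 for Capn5 and -0.28 to 0.16 for Capn10.

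Without those 3 libraries the log2 ratio of Cast to the conventional calpains differed by 0.48 between labels in females and by -0.33 between the sexes under the wild-type label, and the latter was -0.083 with the replicate block. Capn2 over Capn1 differed by -0.057 between labels in females, -0.11 in males and -0.0036 between the sexes (wild-type label) in the low-marker libraries. It differed by -0.031 between labels in females and -0.11 between the sexes (knockout label) without the 3 libraries, and by -0.0098 between the sexes (wild-type label) with the replicate block. None of these ratios passed the threshold, and with so few libraries in these settings none could have.

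In the fits without 1 library, the log2 ratio of Cast to the conventional calpains differed by -0.52 to 0.38 between labels in females, -0.54 to 0.0021 in males, -0.11 to 0.36 between the sexes (knockout label) and -0.48 to 0.42 (wild-type label). In the fits without 1 library, the log2 ratio of Capn2 to Capn1 differed by -0.21 to 0.13 between labels in females, -0.047 to 0.14 in males, -0.11 to 0.11 between the sexes (knockout label) and -0.060 to 0.27 (wild-type label).

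The counts over all tested genes, 0, 2, 0, 4 and 0 in females, males, their difference and the sexes under the knockout and wild-type labels, were 3, 4, 1, 57 and 14 with DESeq2. With limma-voom they were 1 in females, 10 and 6 for the sexes. With marker levels as a term they were 1 in females, 16 and 1 for the sexes. Without a filter on low counts they were 2 and 1 for the sexes, and with the replicate block 13 and 1. In males 0 genes were called with DESeq2 size factors, in the low-marker or high-marker libraries alone and without the 3 libraries. For the sexes 1 and 1 were called in the low-marker libraries, 1 and 1 in the high-marker libraries and 7 and 6 without the 3. Without 1 library, 0 to 1 were called in males, 0 to 10 and 0 to 2 for the sexes. Few Capn3 reads (58 in the lowest library) limit its precision.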
